A study of Mus musculus with 12 samples.

Results

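The genes described here make, sense and break down the signal carried by nitric oxide in mouse lung. They were taken by name from the platform's gene symbols and are the nitric oxide synthases Nos1, Nos2 and Nos3, the soluble guanylate cyclase subunits Gucy1a1 and Gucy1b1, the cGMP phosphodiesterase Pde5a, the cGMP-dependent kinase Prkg1, the dimethylarginine hydrolases Ddah1 and Ddah2, and the caveola protein Cav1. All 10 were measured, with 1 probe set each, among 24704 genes. Nitric oxide is made from arginine. In vessels the endothelial enzyme is the main source, and the gas diffuses into the smooth muscle next to it, where it switches on soluble guanylate cyclase. The cGMP formed there activates a kinase that relaxes the muscle, until phosphodiesterases remove it, and in the lung this chain helps to keep the pressure in the pulmonary arteries low. Drugs that stimulate the cyclase or block PDE5 are used against pulmonary hypertension.

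Whole lungs were taken from 4 groups of mice, with 3 arrays in each. Every mouse carried floxed Nfat5, the gene of a transcription factor best known for the response to high salt. Knockout mice (Nfat5(EC)-/-) received tamoxifen at 10 to 12 weeks of age, 1 mg into the peritoneum on each of 5 days, which deleted the gene in endothelial cells, while control mice (Nfat5fl/fl) received the solvent miglyol. After 2 to 3 weeks of recovery, mice of each genotype spent 21 days in normoxia or hypoxia, an exposure that in mice thickens small lung arteries. Males and females were used together. The drug was given to the knockouts alone, so deletion and tamoxifen cannot be told apart, and which driver made the deletion is a detail not given in the sources analysed. The study counted mice, 4 per group, of which 3 arrays per group were analysed here. Preparations with foreign tissue or with an inadequate expression response to hypoxia had been left out by the authors, so the hypoxia comparisons rest on animals chosen in part on their response.

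Values are log2 expression levels normalized across arrays with RMA, and a difference of 1 is a doubling. A gene was called where its adjusted p from limma, taken over all 24704 genes, was under 0.05. Arrays of a group correlated with r from 0.989 to 0.994, and the mean of 8 lung markers was 12.00 to 12.23 on the 12 arrays. Some arrays stood apart in other markers. Ucp1, the marker gene of brown fat, reached 9.31 on array 2 of knockout normoxia and 7.66 on array 1 of control hypoxia, and no other array passed 4.28. The mean of 5 markers of the heart atrium was 9.60 on knockout normoxia 2 and 8.25 on knockout normoxia 4, against 6.16 to 7.73 elsewhere. All 5 had lower means in hypoxic than in normoxic knockouts at an unadjusted p under 0.05 (median change -1.90), with 0 called by limma there and 2, Nppa and Myl7, called lower over both genotypes. The part of this tissue in the hypoxia changes was not tested, and values without these 2 arrays, which leave knockout normoxia 1 alone in its group with a spread taken from the other groups, are given with the results. The mean of Y-linked genes was high, above its mean over all arrays, in 2 of 3 arrays in each normoxic group, at 6.12 to 6.69. It was high in 1 of 3 in each hypoxic group, at 5.34 in control and 5.36 in knockout. The other arrays lay at 2.98 to 3.26. This measure was thus not balanced between oxygen states. The mean of 10 nuclear noncoding RNAs was 6.11 to 6.58 in control normoxia and 5.52 to 5.76 in control hypoxia, and 5.88 to 6.34 and 5.63 to 6.01 in the knockout groups. Nfat5 itself, measured in all lung cells, was 9.11 ± 0.25 (SD, n = 3) in control and 8.67 ± 0.11 in knockout normoxia, a difference that was not called (adjusted p = 0.620 in limma). In hypoxia it was 8.43 ± 0.24 and 8.34 ± 0.15 (adjusted p = 0.974). With hypoxia Nfat5 changed by -0.68 in control lungs (adjusted p = 0.01575 in limma) and by -0.50 averaged (adjusted p = 0.0091), both called. Its change of -0.33 in knockout lungs was not called (adjusted p = 0.382). Where its probes lie relative to the deleted part was not stated, so these levels are a weak check of the genotype.

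The endothelial and the inducible synthase rose with chronic hypoxia, Cav1 fell slightly, and the other 7 genes did not pass the test in any hypoxia contrast. In control lungs 2 of the 10 genes were called, Nos2 and Nos3, both higher in hypoxia, against 11.5% of all genes called in either direction and 5.36% called higher. In knockout lungs 1 was called, Nos3, against 1.14% of all genes. Averaged over both genotypes 3 were called, Nos2, Nos3 and Cav1, against 14.7% of all genes. The median log2 change of the 10 genes was -0.10 in control lungs, -0.12 in knockout lungs and -0.09 averaged, beside 0.01, 0.0033 and 0.007 over all genes. The 3 hypoxic arrays did not overlap with the 3 normoxic ones for 4 of the 10 genes in control lungs, against 27.7% of all genes, and for 5 in knockout lungs, against 19.8%. In both genotypes at once 2 genes lay higher without overlap, Nos2 and Nos3, against 4.68% of all genes, and 1 lower, Pde5a, against 3.64%.

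**Figure D1:**
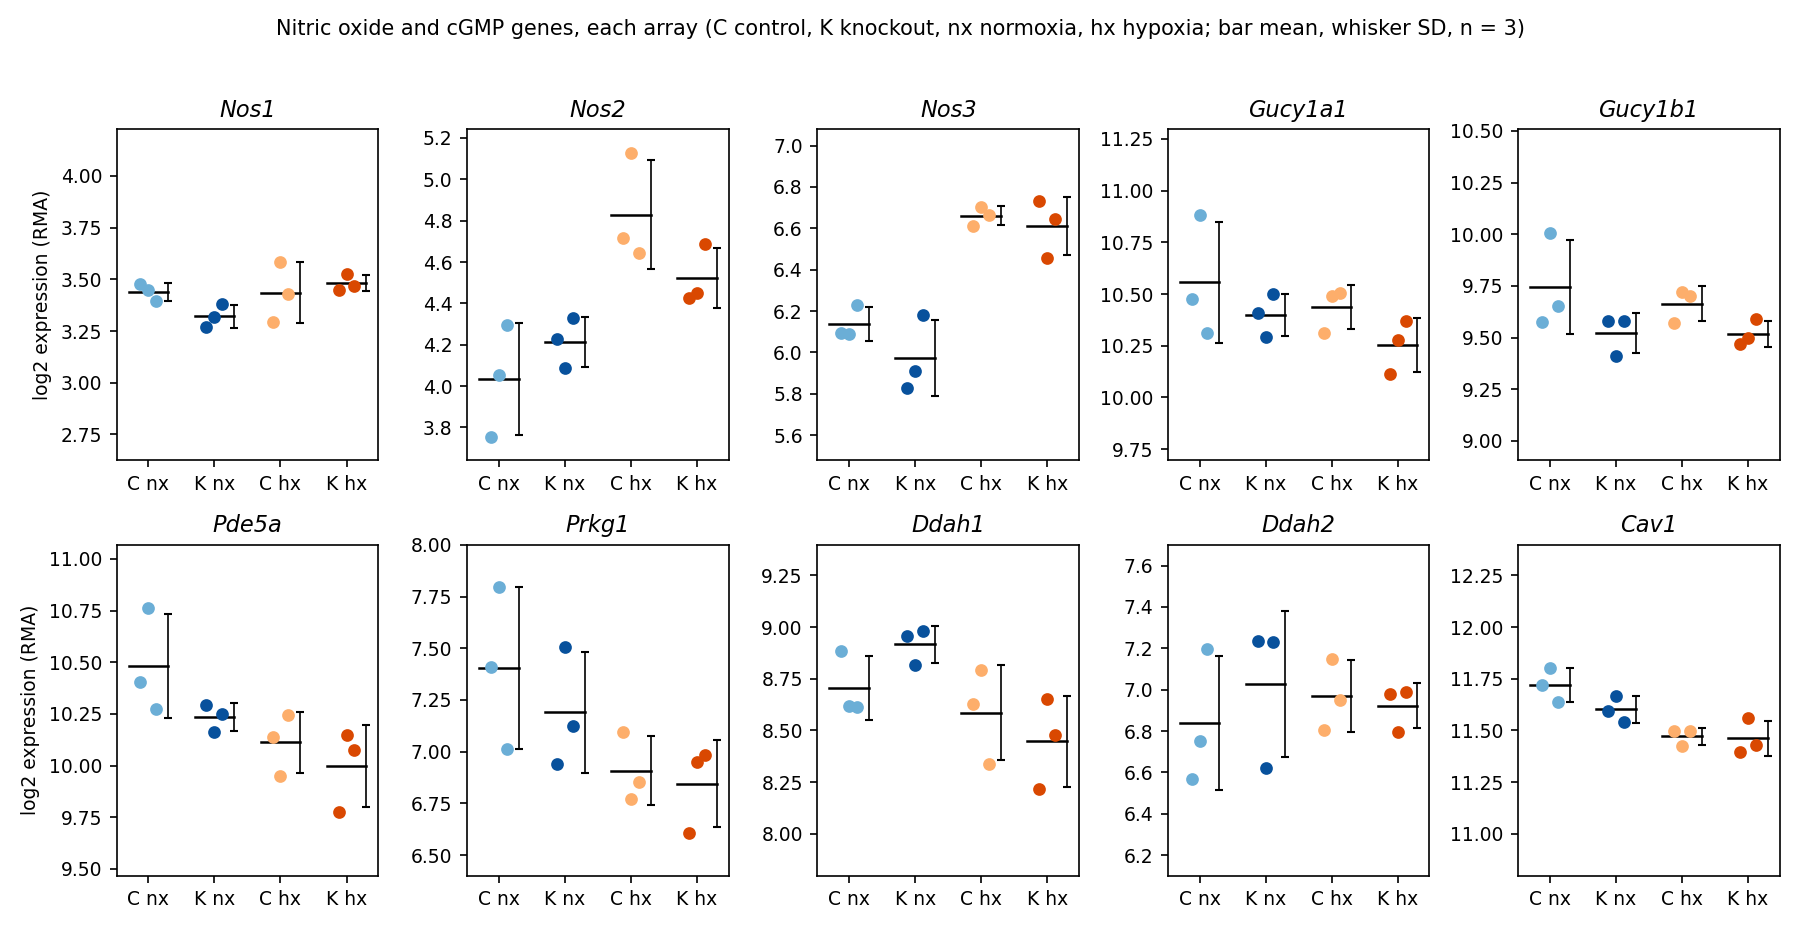
Log2 expression of each of the 10 genes in the 12 arrays, 1 panel per gene with its own scale, with points for arrays, lines for group means and whiskers for the SD of 3 arrays. The hypoxic arrays of Nos3 sit at 6.46 and above and the normoxic ones at 6.23 and below, while the groups of Gucy1b1 and Ddah2 overlap.

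Nos3 encodes the endothelial nitric oxide synthase. In control normoxia its level was 6.09, 6.09 and 6.23, and in control hypoxia 6.61, 6.70 and 6.67. In knockout normoxia it was 5.83, 5.91 and 6.18, and in knockout hypoxia 6.73, 6.46 and 6.65. All 6 hypoxic arrays lay above all 6 normoxic ones, with no overlap in either genotype. With hypoxia Nos3 rose by a log2 change of 0.52 ± 0.11 in the controls (SE; 1.44-fold, 95% interval 0.29 to 0.75, adjusted p = 0.0124 in limma). In knockout lungs it rose by 0.64 ± 0.11 (1.56-fold, 0.41 to 0.87, adjusted p = 0.0151). Over both genotypes the rise was 0.58 ± 0.074 (1.50-fold, adjusted p = 0.00104), and the exact permutation test (two-sided) gave p = 0.005, the lowest value that 400 regroupings within genotypes allow. An exact test of 3 arrays against 3 within 1 genotype cannot go below 0.1. The order of the group means was knockout normoxia (5.97), control normoxia (6.14), knockout hypoxia (6.61) and control hypoxia (6.66), and only the step from normoxia to hypoxia had no overlapping arrays.

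The averaged rise of Nos3 was called without each array in turn, at 0.545 to 0.633. In control lungs the change without control hypoxia 2 was 0.50, with an adjusted p of 0.0511. In knockout lungs the call was lost without knockout normoxia 1 (0.57, adjusted p = 0.0633), knockout normoxia 2 (0.61, 0.0808), knockout hypoxia 2 (0.58, 0.0675) or knockout hypoxia 4 (0.62, 0.0769). With the nuclear RNA mean as a covariate the averaged change was 0.44 (adjusted p = 0.206 in limma) and the control change 0.30 (adjusted p = 0.750), while the knockout change stayed called at 0.57 (adjusted p = 0.0403). Without the 2 arrays with atrial markers the averaged change was 0.65 (adjusted p = 0.00761) and that in knockout lungs 0.79, which was not called (adjusted p = 0.150). Without the 2 arrays with brown fat markers the knockout change was 0.61 (adjusted p = 0.109).

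Markers of endothelial cells, the main source of Nos3 in vessels, went both ways. Of 12 endothelial markers 1 rose and 3 fell in each genotype, and 1 rose and 4 fell averaged. Over all genes 5.36% were called higher and 6.14% lower in control lungs. In knockout lungs these shares were 0.64% and 0.502%, and averaged they were 7.27% and 7.4%. Emcn, an endothelial sialomucin, rose by 0.60 in control and 0.71 in knockout lungs. Tek and Kdr, the receptors for angiopoietins and VEGF, fell by 0.48 and 0.39 in control and by 0.51 and 0.60 in knockout lungs, and the TGF-beta co-receptor Eng fell by 0.61 in both. The mean of the 12 was 10.11 to 10.22 in control normoxia and 10.01 to 10.15 in control hypoxia. In the knockouts it was 10.04 to 10.28 in normoxia and 9.90 to 10.04 in hypoxia. In whole lung, a change in the number of cells of a type and a change in RNA per cell cannot be told apart, and the part of the cell makeup in the level of Nos3 was not tested.

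**Figure D2:**
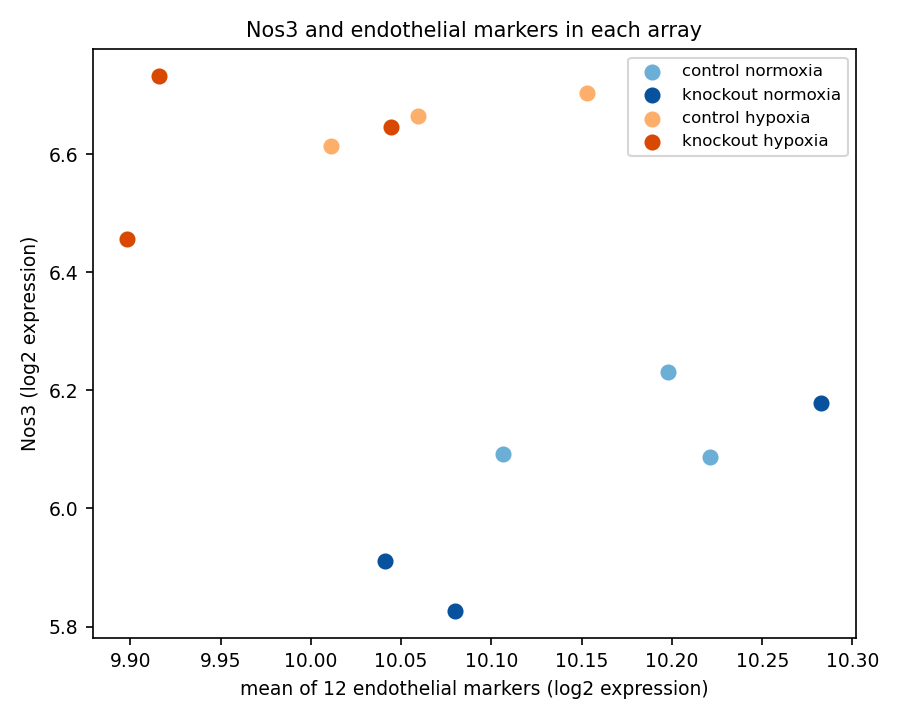
Nos3 against the mean of 12 endothelial markers (both log2 expression), with 1 point per array coloured by group. Nos3 splits the hypoxic from the normoxic arrays on the vertical axis, while the marker mean runs from 9.90 to 10.28 and overlaps between oxygen states.

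Nos2 encodes the inducible synthase, which macrophages and other cells make under inflammatory signals. Its level was low on these arrays, whose median gene was at 4.55. It was 3.76, 4.05 and 4.30 in control normoxia and 4.72, 5.13 and 4.64 in control hypoxia. In knockout normoxia it was 4.23, 4.09 and 4.33, and in knockout hypoxia 4.43, 4.45 and 4.69. The hypoxic arrays lay above the normoxic ones in each genotype, by a wider gap in the controls. Nos2 rose in control lungs by 0.79 ± 0.16 (SE; 1.73-fold, 95% interval 0.45 to 1.14, adjusted p = 0.0113 in limma). In knockout lungs the change was 0.31 ± 0.16 (-0.03 to 0.65, adjusted p = 0.452), which was not called. Over both genotypes Nos2 rose by 0.55 ± 0.11 (1.47-fold, adjusted p = 0.00804), with an exact permutation p of 0.005.

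Leaving out each array in turn kept the calls of Nos2, at 0.645 to 0.925 in control lungs and 0.477 to 0.617 averaged. With the nuclear RNA mean as a covariate the changes were 0.48 in control lungs (adjusted p = 0.726 in limma) and 0.35 averaged (adjusted p = 0.590). From the 6 control arrays alone the adjusted p was 0.0512. Without the 2 arrays with atrial markers the averaged change was 0.55 and not called (adjusted p = 0.0757), and the control change stayed called at 0.79 (adjusted p = 0.0240). Among 8 alveolar macrophage markers 4 rose in control lungs, 1 in knockout lungs and 4 averaged, and 0 fell. Over all genes 5.36%, 0.64% and 7.27% were called higher in the same order. The interaction of these markers was called for 0 of 8 by limma. Their mean was 6.87 to 7.28 in control normoxia and 7.46 to 7.76 in control hypoxia, against 7.37 to 7.43 and 7.66 to 7.81 in the knockouts. Their part in the level of Nos2 was not tested. Nos1, the neuronal synthase, lay between 3.27 and 3.58 on all 12 arrays, at the low end of the scale. Its change was 0.08 ± 0.06 averaged (adjusted p = 0.450).

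Soluble guanylate cyclase is a pair of an alpha and a beta subunit, encoded by Gucy1a1 and Gucy1b1. Neither was called with hypoxia. Gucy1a1 was 10.47, 10.88 and 10.31 in control normoxia, 10.31, 10.49 and 10.51 in control hypoxia, 10.41, 10.29 and 10.50 in knockout normoxia, and 10.11, 10.28 and 10.37 in knockout hypoxia. Gucy1b1 was 9.58, 10.00 and 9.65, then 9.57, 9.72 and 9.70, then 9.58, 9.41 and 9.58, and 9.47, 9.50 and 9.59 in the same order. The groups overlapped, and control normoxia 2 was the highest array for both. The averaged change was -0.13 ± 0.10 (SE, adjusted p = 0.414) for Gucy1a1 and -0.04 ± 0.08 (adjusted p = 0.787) for Gucy1b1.

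The 2 subunits varied together from array to array. Pearson's r was 0.886 over the 12 arrays and 0.899 after group means were taken off, which is a description over arrays that share RNA, normalization and scan. The likeness was not confined to the pair. Gucy1a1 also ran with Pde5a (0.817, and 0.783 within groups), as did Gucy1b1 less closely (0.662 and 0.639). The genes of the 2 subunits are neighbours on chromosome 3, with 0 annotated genes between them in RefSeq. The 250 bases before 1 annotated start of each gene are printed because the pair varied together, from RefSeq on GRCm38.p6, 5′ to 3′ on the gene's strand, which is the minus strand for both. They are chr3:82145651-82145900 for Gucy1a1 and chr3:82074712-82074961 for Gucy1b1, and capitals would mark ACGTG or TGGAAA on either strand, of which neither window holds one. A second window of Gucy1a1, chr3:82145074-82145323, holds neither and is not printed.
Gucy1a1: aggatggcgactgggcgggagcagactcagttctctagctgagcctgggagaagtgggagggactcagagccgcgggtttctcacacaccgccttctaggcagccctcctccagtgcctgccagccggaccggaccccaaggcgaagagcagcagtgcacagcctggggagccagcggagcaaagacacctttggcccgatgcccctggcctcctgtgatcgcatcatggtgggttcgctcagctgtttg
Gucy1b1: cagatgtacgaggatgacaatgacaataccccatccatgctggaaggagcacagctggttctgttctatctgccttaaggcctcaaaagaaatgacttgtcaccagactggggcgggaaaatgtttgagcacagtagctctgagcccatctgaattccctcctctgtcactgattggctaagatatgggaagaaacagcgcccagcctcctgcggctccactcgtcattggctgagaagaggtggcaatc

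Pde5a, whose enzyme breaks down cGMP, and Prkg1, whose kinase carries its signal, had lower means in hypoxia but were not called. Pde5a was 10.41, 10.76 and 10.27 in control normoxia and 10.14, 9.95 and 10.25 in control hypoxia, and 10.29, 10.16 and 10.25 against 9.77, 10.15 and 10.08 in the knockouts. In both genotypes each hypoxic array was below each normoxic one. Its averaged change was -0.30 ± 0.10 (SE; 95% interval -0.51 to -0.09, adjusted p = 0.0583 in limma), with an exact permutation p of 0.005.

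Prkg1 was 7.41, 7.79 and 7.01 in control normoxia and 7.09, 6.77 and 6.85 in control hypoxia, and 6.94, 7.51 and 7.12 against 6.61, 6.95 and 6.98 in the knockouts. The groups overlapped within each genotype. Its averaged change was -0.42 ± 0.14 (-0.73 to -0.11, adjusted p = 0.0670 in limma, exact permutation p = 0.03). Without control normoxia 4 both genes were called, Pde5a at -0.35 (adjusted p = 0.0283) and Prkg1 at -0.52 (adjusted p = 0.0181), and the calls then numbered 5 of 10 in control lungs and 5 averaged. With genes of mean log2 under 5 left out both were also called (adjusted p = 0.0369 for Pde5a and 0.0389 for Prkg1), and with a trended and robust prior Pde5a was (adjusted p = 0.0362). With the nuclear RNA mean as a covariate neither was called, at -0.056 for Pde5a and at 0.15, of the opposite sign, for Prkg1. Of 8 smooth muscle markers, 6 rose in control lungs and 0 in knockout lungs by limma (2 of the 8 at an unadjusted p under 0.05). Over all genes 5.36% were called higher in control lungs, 0.64% in knockout lungs and 7.27% averaged. The share of all genes at the unadjusted cut is not given for the hypoxia contrasts. The marker means were 7.79 and 8.27 in control normoxia and hypoxia and 8.03 and 8.12 in the knockouts. Their interaction was called for 0 of 8 by limma, with 5 at an unadjusted p under 0.05 (median -0.41), against 8.25% of all genes. Of 8 pericyte markers 4 rose in control lungs, 0 in knockout lungs by limma (5 at an unadjusted p under 0.05) and 6 averaged. The interaction of the pericyte markers was called for 0 of 8. The part of these cells in the levels of Pde5a and Prkg1 was not tested.

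DDAH enzymes break down asymmetric dimethylarginine, an inhibitor of the synthases that cells make. Ddah1 was 8.88, 8.62 and 8.62 in control normoxia and 8.63, 8.79 and 8.34 in control hypoxia, where the groups overlapped. In knockout lungs it was 8.96, 8.81 and 8.98 in normoxia and 8.21, 8.65 and 8.48 in hypoxia, with no overlap. Its change was -0.12 ± 0.14 in control lungs (SE, adjusted p = 0.627), -0.47 ± 0.14 in knockout lungs (adjusted p = 0.152) and -0.30 ± 0.10 averaged (adjusted p = 0.0653 in limma), none of them called. With the Y-linked mean as a covariate the averaged change was -0.41 (adjusted p = 0.0160) and that in knockout lungs -0.59 (adjusted p = 0.0468), and without knockout hypoxia 3 the averaged change was -0.35 (adjusted p = 0.0396). The averaged change was also called with genes of mean log2 under 5 left out (adjusted p = 0.0414) and with a trended and robust prior (adjusted p = 0.0495). It stayed uncalled in 4 of 7 such settings (-0.414 to -0.276 over the 7). It was also uncalled in 11 of 12 fits without 1 array (-0.347 to -0.233 over the 12). In knockout lungs the change was called in 1 of 8 settings. Ddah2 ranged from 6.57 to 7.23 over the arrays, with groups that overlapped, and its averaged change was 0.01 ± 0.13 (adjusted p = 0.970).

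Caveolin-1 coats the flask-shaped pits of the cell membrane called caveolae, and it holds the endothelial synthase there in a less active state. Cav1 was 11.72, 11.80 and 11.64 in control normoxia and 11.50, 11.42 and 11.50 in control hypoxia, with no overlap. In knockout lungs it was 11.60, 11.67 and 11.54 in normoxia and 11.39, 11.56 and 11.43 in hypoxia, where knockout hypoxia 3 lay above knockout normoxia 4. The change was -0.25 ± 0.08 in control lungs (SE, adjusted p = 0.0626), -0.14 ± 0.08 in knockout lungs (adjusted p = 0.514) and -0.19 ± 0.056 averaged (95% interval -0.32 to -0.07, adjusted p = 0.0373 in limma, exact permutation p = 0.01). Over both genotypes Cav1 thus fell to 0.874 of its normoxic level.

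The call of this small fall was lost in most of the fits without 1 array. It was not called without control normoxia 1 or 2, control hypoxia 2 or 4, knockout normoxia 1 or 2, or knockout hypoxia 2 or 4, where the change was -0.20 to -0.17 and the adjusted p 0.0593 to 0.0930. It was also lost without the 2 arrays with brown fat markers (-0.183, adjusted p = 0.109), without those with atrial markers (-0.191, adjusted p = 0.197), with the Y-linked mean as a covariate (-0.195, adjusted p = 0.0927) and with the nuclear RNA mean as a covariate (-0.059, adjusted p = 0.908). Alveolar type 1 cells also make Cav1. Of 8 of their markers 1 rose and 3 fell in the averaged contrast, beside 7.27% of all genes called higher and 7.4% called lower. In knockout lungs 0 of 8 were called, against 1.14% of all genes. The marker mean was 11.24 to 11.26 in control normoxia and 11.04 to 11.15 in control hypoxia. In the knockouts it was 11.15 to 11.22 in normoxia and 10.99 to 11.14 in hypoxia. The part of these cells in the level of Cav1 was not tested.

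This promoter window of Cav1 is printed because it alone of 11 windows, for 8 of the 10 genes, holds ACGTG. Those are the core letters of the hypoxia response element. No window was found for Nos2 and Nos3, so neither was searched. The window chr6:17306085-17306334, plus strand, GRCm38.p6, comes from RefSeq, and its capitals mark the match, which reads ACGTG on the reverse strand. The second window of Cav1, chr6:17307390-17307639, holds neither motif and is not printed.
Cav1: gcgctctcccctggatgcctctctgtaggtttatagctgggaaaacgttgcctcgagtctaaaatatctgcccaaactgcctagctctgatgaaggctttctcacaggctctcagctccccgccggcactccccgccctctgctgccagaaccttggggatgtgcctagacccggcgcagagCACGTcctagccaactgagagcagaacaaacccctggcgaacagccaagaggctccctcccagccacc
ACGTG on either strand occurs in 16.6% of 32851 such windows. TGGAAA, the core letters that NFAT proteins bind, occurs in 18.6% of them and in 3 of the 11, those of Nos1, Prkg1 and Ddah1. A match of letters is not a binding site.

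**Figure D3:**
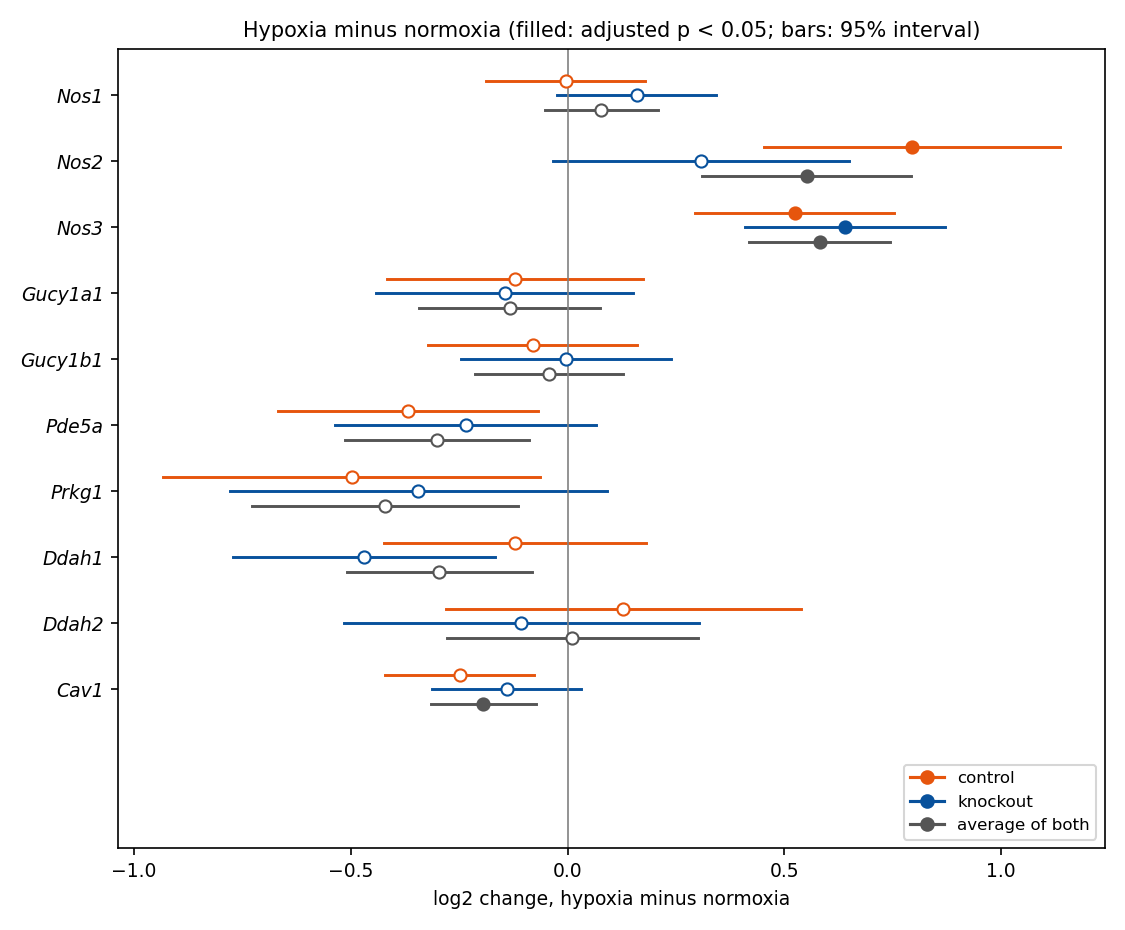
Log2 change with hypoxia of the 10 genes in control lungs, in knockout lungs and averaged over both, with 95% intervals and filled points at an adjusted p under 0.05. Nos2 and Nos3 lie to the right of 0 and the filled Cav1 point at -0.19.

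Several genes of a list for nitric oxide synthesis and its cofactors also rose, not all of which favour synthesis. Of 23 genes for nitric oxide synthesis and its cofactors, 4 rose and 0 fell with hypoxia in control lungs, beside 5.36% of all genes called higher and 6.14% called lower. Over both genotypes 7 rose and 0 fell, beside 7.27% called higher and 7.4% called lower. Ass1, which rebuilds arginine from citrulline, had the largest rise of the 7, from 3.95, under the array median of 4.55, to 5.46 in control lungs (1.51 ± 0.29, SE; adjusted p = 0.0104 in limma). Its averaged rise was 1.30 ± 0.20 (adjusted p = 0.00275). By adjusted p the next were Nosip, a protein that binds the endothelial synthase, at 0.50 (adjusted p = 0.00856), the arginine transporter Slc7a2 at 0.31 (adjusted p = 0.0151) and Prmt1 at 0.31 (adjusted p = 0.0281). Prmt1 makes the asymmetric dimethylarginine that DDAH removes, which inhibits the synthases.

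Gch1, the first enzyme of the cofactor tetrahydrobiopterin, rose by 0.51 (adjusted p = 0.0311 in limma), more than Slc7a2 or Prmt1. Gch1, Calm3, 1 of the calmodulin genes, and Qdpr, which recycles the cofactor, were the other 3 that rose, Gch1 and Calm3 being named after their values were seen. The averaged calls of Ass1, Nosip and Slc7a2 held without each array in turn, and those of the other 4 did not. With the Y-linked mean as a covariate 3 rose and 1 fell in control lungs and 2 rose and 1 fell averaged. The one that fell there was Calm2, another calmodulin gene, whose change without the covariate was -0.32 ± 0.12 in control lungs (adjusted p = 0.118) and -0.19 ± 0.09 averaged (adjusted p = 0.183). The control count was 1 without control normoxia 2 or control hypoxia 2, 2 without control normoxia 1, control hypoxia 4 or knockout normoxia 1, and 7 without control normoxia 4. It was 1 from the control arrays alone, 2 without the arrays with atrial markers and 0 with the nuclear covariate. The averaged count was 1, Ass1, without the arrays with atrial markers, 3 without the 2 arrays with brown fat markers, 3 without control normoxia 2, control hypoxia 2, knockout normoxia 2, knockout hypoxia 2 or knockout hypoxia 4, 4 without control hypoxia 1 or knockout normoxia 4, and 0 with the nuclear RNA mean as a covariate. In knockout lungs 0 of the 23 passed in limma, against 1.14% of all genes, and Ass1 changed by 1.08 ± 0.29 (adjusted p = 0.115). There 4 of the 23 had an unadjusted p under 0.05, with no share over all genes given for that cut. The median change of the list was 0.15 in control lungs, 0.12 in knockout lungs and 0.14 averaged.

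Among 28 other genes for cGMP synthesis, breakdown and kinase targets, 2 rose and 2 fell in control lungs, 0 rose and 1 fell in knockout lungs, and 2 rose and 3 fell over both. These shares stand beside 11.5%, 1.14% and 14.7% of all genes called in either direction. Its phosphodiesterases went in opposite directions. Pde2a, which cGMP itself stimulates, rose by 0.64 ± 0.12 in control lungs (adjusted p = 0.00900 in limma) and by 0.54 ± 0.08 averaged (adjusted p = 0.00249). Pde3a, whose hydrolysis of cAMP is inhibited by cGMP, fell by 0.36 in control lungs (adjusted p = 0.0394), by 0.63 in knockout lungs (adjusted p = 0.0135) and by 0.50 averaged (adjusted p = 0.00189). Ppp1r12a, the targeting subunit of myosin phosphatase through which the kinase relaxes muscle, fell by 0.53 averaged (adjusted p = 0.0112).

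Hspb6, a small heat shock protein of muscle, rose by 0.38 in control lungs (adjusted p = 0.0430 in limma). That call was lost in 8 of the 12 fits without 1 array, those without control normoxia 1 or 2, any 1 control hypoxia array, knockout normoxia 4 or knockout hypoxia 3 or 4 (adjusted p up to 0.155). Averaged over genotypes, Pde10a, which splits both cyclic nucleotides, rose by 0.30 (adjusted p = 0.0210 in limma). The natriuretic peptide receptor Npr1, which makes cGMP at the membrane, fell by 0.26 (adjusted p = 0.0457) and is named after its value was seen, as the last of the 5. The call of Npr1 was lost in 10 of the 12 fits without 1 array, all but those without control hypoxia 2 or knockout normoxia 2 (adjusted p up to 0.103), and in 5 of 7 other settings (up to 0.164). That of Pde10a was lost in 3 of the 12, those without control normoxia 2, knockout normoxia 2 or knockout hypoxia 2 (adjusted p up to 0.0538). The averaged calls of Pde2a, Pde3a and Ppp1r12a held without each array in turn. In control lungs that of Pde3a was lost without control normoxia 1 or 2, any 1 control hypoxia array or any 1 knockout normoxia array (adjusted p up to 0.134). That of Ppp1r12a was lost without control normoxia 1 or 2 or control hypoxia 2 or 4 (adjusted p up to 0.0818). In knockout lungs the call of Pde3a was lost without knockout normoxia 2, knockout normoxia 4 or both, without the brown fat arrays, and from the knockout arrays alone. The control count of 4 was 1 without control normoxia 1 or 2 or control hypoxia 2 or 4, 2 without control hypoxia 1, knockout normoxia 4, the brown fat arrays or the arrays with atrial markers, 2 with the Y-linked and 0 with the nuclear covariate, and 1 from the control arrays alone. The averaged count of 5 was 3 without the brown fat arrays, 3 without control normoxia 2 or knockout hypoxia 2, 3 with the Y-linked covariate, 2 (Pde2a and Pde3a) without the arrays with atrial markers, and 0 with the nuclear covariate. The median change was -0.14 in control lungs and -0.08 averaged.

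Of the 9 other caveola genes, 2 rose and 1 fell in control lungs and averaged, beside 11.5% and 14.7% of all genes called in either direction. In knockout lungs 0 passed in limma, against 1.14% of all genes. There 2 had an unadjusted p under 0.05, again with no share over all genes given for that cut. Ehd2, an ATPase at the neck of caveolae, rose by 0.46 ± 0.08 in control lungs (adjusted p = 0.00733) and by 0.39 averaged (adjusted p = 0.00189). The coat protein Cavin3 rose by 0.63 ± 0.14 in control lungs (adjusted p = 0.0181) and by 0.55 averaged (adjusted p = 0.00519). Cav2, the partner of caveolin-1, fell by 0.57 ± 0.13 in control lungs, from 10.02 to 9.45 (adjusted p = 0.0192), and by 0.38 averaged (adjusted p = 0.0187). Without knockout hypoxia 2 the averaged change of Cav2 was -0.345 and was not called. Its averaged fall was also not called with the Y-linked mean as a covariate, nor its control fall from the control arrays alone. In each of these 2 fits 2 genes of the list rose and 0 fell. The control count was 1, Ehd2, without control normoxia 1, control normoxia 2 or control hypoxia 2, and the call of Cavin3 was also lost without control hypoxia 4. The averaged count was 1, Ehd2, without the arrays with atrial markers, and the control and averaged counts were 0 with the nuclear covariate.

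**Figure D4:**
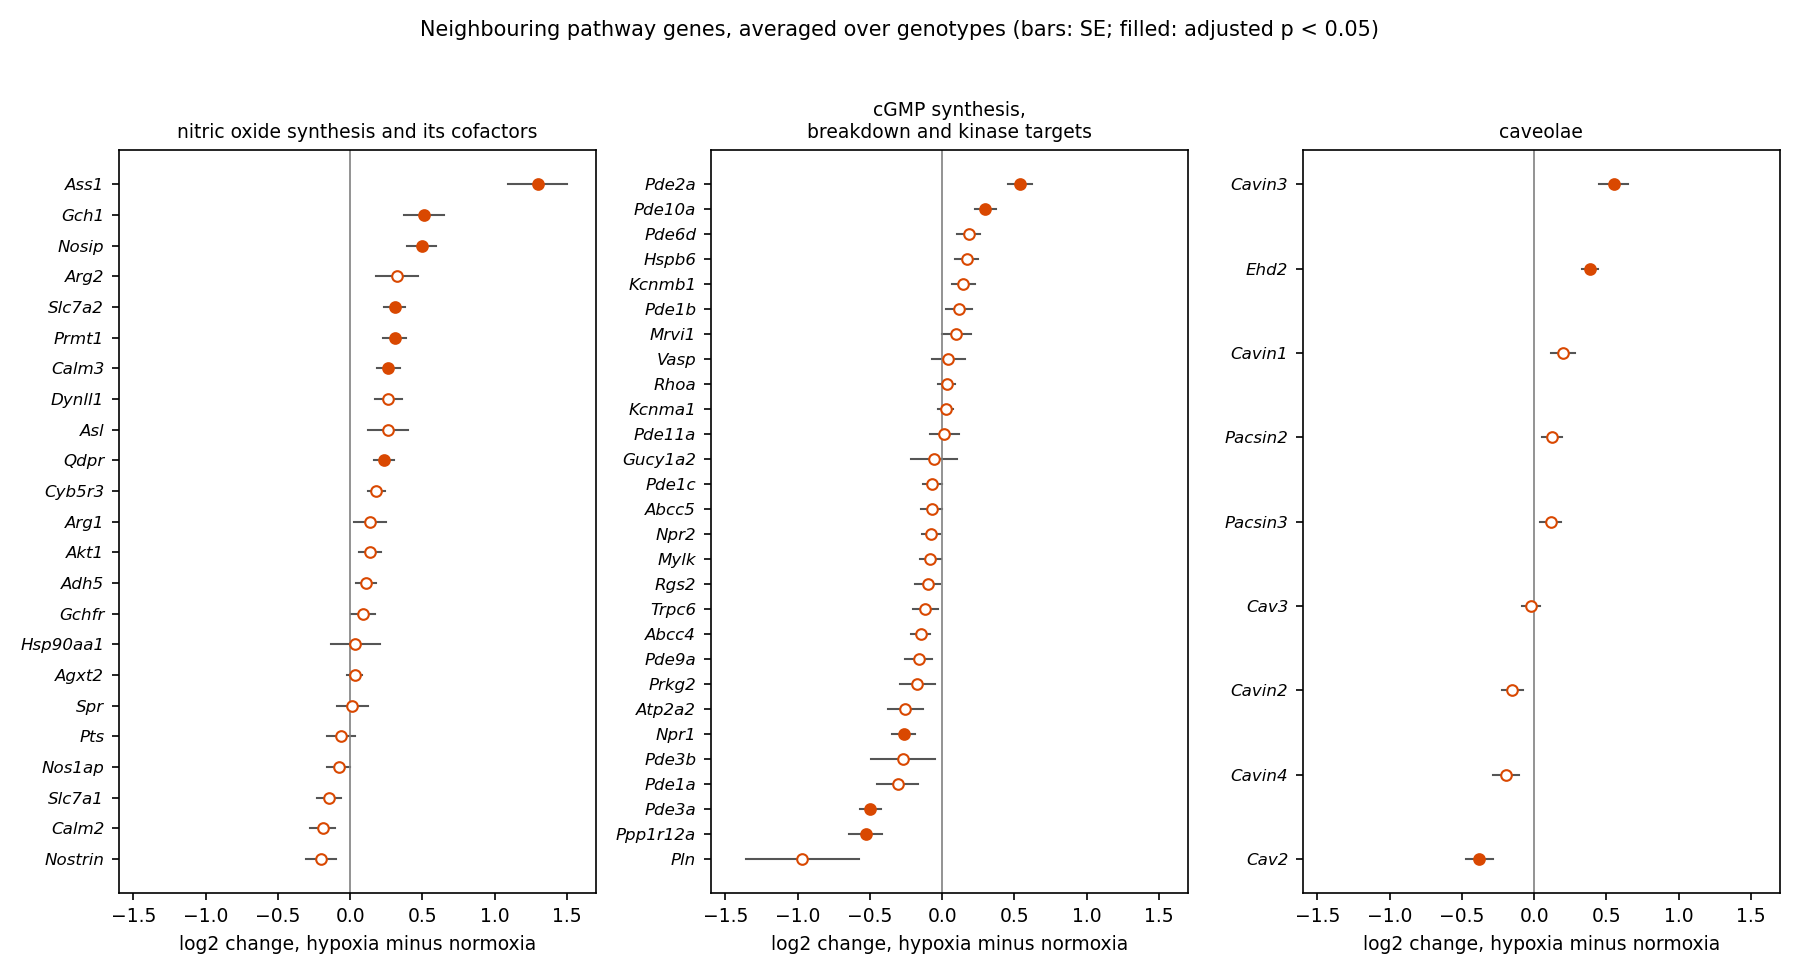
Averaged log2 change with hypoxia (horizontal axis, bars limma's SE) of each measured gene of the 3 lists, with filled points at an adjusted p under 0.05. Ass1 at 1.30 stands farthest to the right among the filled points, and Ppp1r12a and Pde3a farthest to the left.

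None of the 10 genes was called between knockout and control lungs by limma. In normoxia 0 were called by limma against 0.00405% of all genes, and 0 had an unadjusted p under 0.05 against 7.26%. In hypoxia both counts were again 0 in limma, against 0.0% of all genes called and 5.1% with an unadjusted p under 0.05. Averaged over oxygen 0 were called by limma against 0.0% of all genes, and 1 had an unadjusted p under 0.05 against 4.26%. That gene was Gucy1b1, at -0.18 ± 0.08 (SE; unadjusted p = 0.0378, adjusted p = 1.00, exact permutation p = 0.03). Nos1 alone had no overlap between genotypes in normoxia, against 11.7% of all genes, and in hypoxia 0 genes did, against 9.74%.

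For Nos3 the knockout minus control difference was -0.17 ± 0.11 in normoxia (SE, adjusted p = 0.770) and -0.05 ± 0.11 in hypoxia (95% interval -0.28 to 0.18, adjusted p = 0.979). For Nos2 it was 0.18 ± 0.16 in normoxia (adjusted p = 0.840) and -0.31 ± 0.16 in hypoxia (adjusted p = 0.947). The median difference of the 10 genes was -0.14 in normoxia, where 7 lay below 0, and -0.09 in hypoxia, where 9 did. Over all genes these medians were -0.0039 and -0.0013.

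The interaction asks whether the response to hypoxia differed between genotypes. It was called for 0 of the 10 genes, against 0.00405% of all genes, and 1 had an unadjusted p under 0.05, against 8.25%. That gene was Nos2, with an interaction of -0.49 ± 0.22 (SE; 95% interval -0.97 to -0.0036, unadjusted p = 0.0486, adjusted p = 0.605 in limma). For Nos3 it was 0.12 ± 0.15 (-0.21 to 0.44, adjusted p = 0.863), and for Ddah1 -0.35 ± 0.20 (adjusted p = 0.671). The rise of Nos2 in control lungs, called where the knockout change was not, is therefore not shown to differ between genotypes. Of the genes of the 3 lists, 0 were called in a genotype contrast or in the interaction by limma. At an unadjusted p under 0.05 the interaction counts were 2 of 23, 3 of 28 and 0 of 9.

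**Figure D5:**
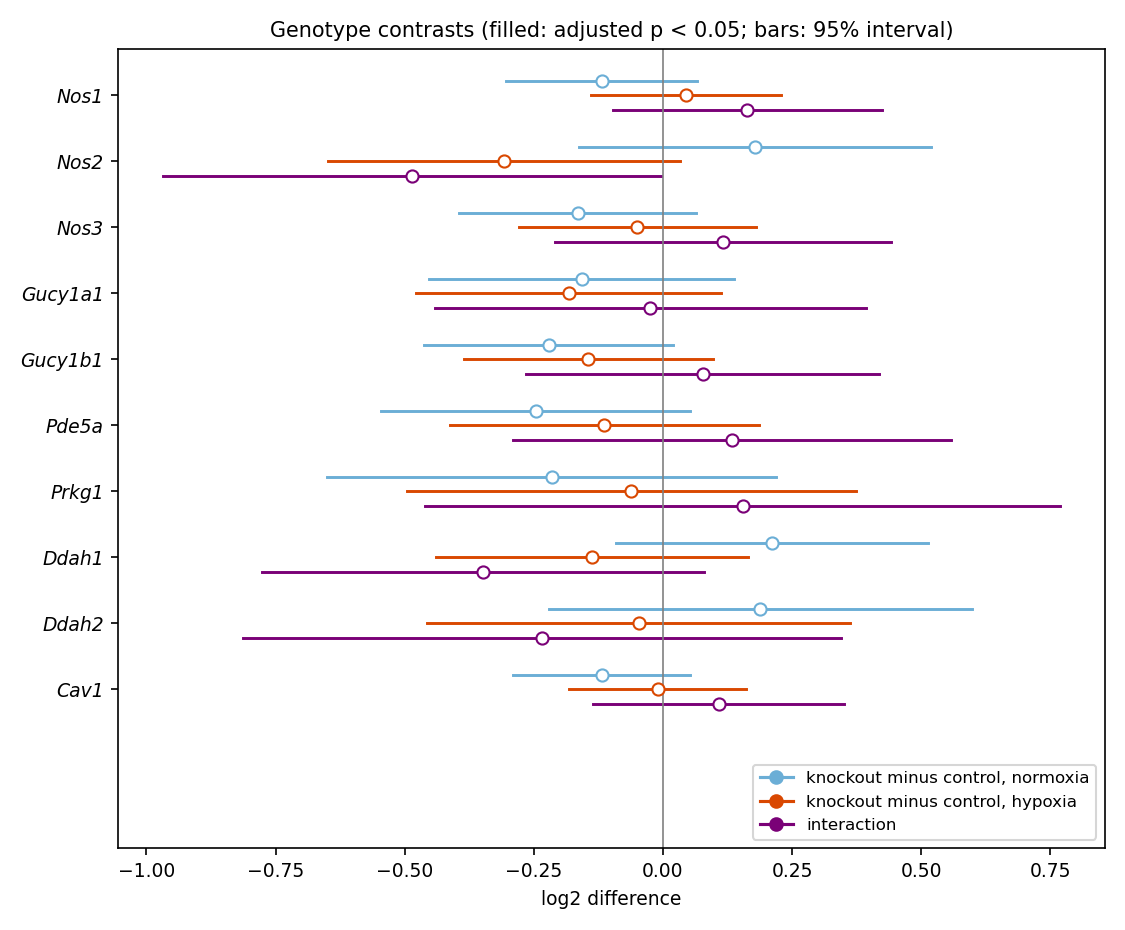
Knockout minus control (log2) for normoxic and for hypoxic lungs, and the interaction, for each of the 10 genes, with 95% intervals. All points are open (adjusted p of 0.05 or more), and the interaction of Nos2 reaches farthest from 0 at -0.49.

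Genes whose levels ran most like those of the called genes are given by Pearson's r over the 12 arrays, as a description over arrays that share groups and normalization. Nos3 ran closest to Ephx1 (0.979), the endothelial Emcn (0.977) and Sstr4 (0.969). Nos2 ran closest to Gaa (0.973), Inf2 (0.971) and Fscn1 (0.963). Cav1 ran closest to Dmtf1 (0.977), Hnrnph1 (0.971) and Stag1 (0.970). Among the 10 genes Cav1 went with Prkg1 (0.880, and 0.779 within groups) and Pde5a (0.878 and 0.712). It went against Nos3 (-0.800 and -0.778) and Nos2 (-0.816 and -0.530).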

How the data were processed

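Whole lung RNA of 12 mice was measured on Affymetrix arrays. The authors deposited log2 expression values made with RMA, per the submitters' processing notes, with no version stated. Ranked values were identical on all arrays. Of 25428 probe sets, 24705 had 1 gene symbol in the platform annotation, 723 had none, and 1 repeat of a symbol was left out.

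Each gene was fitted as 4 group means with limma 3.58.1 in R 4.3.3 (8 residual degrees of freedom, prior 3.61), with 7 two-sided contrasts and Benjamini-Hochberg adjustment over all genes in each. Every adjusted p is limma's. Of the steps, only the main limma fit was tried on simulated data, with normal noise drawn separately for each gene. Such data hold none of the variation that genes of an array share. The members, lists and tests were chosen with earlier results of these data known. Up to 4 called genes per list and contrast, by adjusted p, are named, with the 10 members, Nfat5 and 3 most correlated genes per called member. Promoters came from RefSeq. Arrays and not depth set the precision.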

Additional observations from a re-analysis of the deposited data

How the results depend on the processing

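In control lungs 2 genes were called, and the count was 1 with genes of mean log2 under 5 left out (Nos2 was among those), 1 from the 6 arrays compared alone, 0 with the nuclear RNA mean as a covariate, and 1 to 5 without each array in turn. In knockout lungs 1 was called, with 0 under a replicate block, 0 from the arrays compared alone, 2 with the Y-linked mean as a covariate, 0 without the 2 arrays with brown fat markers, 0 without the 2 arrays with atrial markers, and 0 to 1 without each array. Averaged over genotypes 3 were called, with 5 under the filter, 5 under a trended and robust prior, 0 with the nuclear covariate, 1 without the arrays with atrial markers and 2 to 5 without each array. The genotype contrasts and the interaction gave 0 members throughout. Of 1356 changes of single members under alternatives, 1297 kept their side of the threshold, or moved within the spread, 28 lost a call, 14 gained one and 17 uncalled ones moved, and 0 called values changed sign.

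No pairing by replicate number was stated, and the main fit used none. Deviations of same-numbered arrays correlated with r from -0.248 to 0.277 over 15 pairs (median 0.021). For 39 other pairs r was -0.321 to 0.341 (median -0.025). Between the normoxic groups the same-numbered pairs had r of 0.086, 0.277 and 0.183, and the others -0.283 to 0.161. Y-linked means of arrays 1, 2 and 4 were 3.04, 6.69 and 6.18 in control and 2.98, 6.66 and 6.12 in knockout normoxia. In hypoxia the highest were 5.34 on control 4 and 5.36 on knockout 2. Number 3 occurred on knockout hypoxia 3 alone, so every fit with the block matched that array exactly and in effect left it out. Knockout hypoxia then rested on arrays 2 and 4, so calls lost under the block are not an effect of pairing alone. Under the replicate block Nos3 in knockout lungs changed by 0.677 (adjusted p = 0.0689 in limma) and Cav1 averaged by -0.217 (adjusted p = 0.0651). The cGMP list count under the block was 2 in control lungs (against 4, with Pde3a and Hspb6 lost), 0 in knockout lungs (against 1, with Pde3a at -0.691, adjusted p = 0.0941) and 3 averaged (against 5, with Npr1 and Pde10a lost). Of the nitric oxide synthesis list, Qdpr lost its call in control lungs (adjusted p = 0.055), where the count was 4 with and without the block, and Qdpr and Calm3 lost theirs averaged (5 called against 7).

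Over all genes, calls in control lungs numbered 2839, against 1100 from the arrays compared alone, 1794 with the Y-linked and 2 with the nuclear covariate, and 808 to 3920 without each array. In knockout lungs they numbered 282, against 40 with the block, 166, 155, and 51 without the brown fat arrays, 11 without the arrays with atrial markers, and 71 to 258. Averaged they numbered 3622, against 2180 with the Y-linked and 78 with the nuclear covariate, 677 without the arrays with atrial markers, and 2254 to 4426. The nuclear covariate differs with oxygen, so that fit also takes up part of the oxygen contrast. Values of pathway lists under the alternatives, and all fits without the arrays with atrial markers, were added after seeing the data. With 3 arrays per group the number of arrays limits the precision, and Nos1, Nos2 and normoxic Ass1 lie near the low end of the signal.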
